A study of Bos taurus with 5 samples.

Results

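Immediate early genes are transcribed within minutes of a growth factor, stress or injury signal, without the need for new protein synthesis. The signal reaches them through MAP kinases, which act on factors already bound at their promoters, such as SRF, the ELK proteins and CREB1. FOS and JUN proteins pair through leucine zippers into the dimeric factor AP-1. Other members of the group, such as the kinase phosphatase DUSP1 and the RNA-binding protein ZFP36, act against the signal or its transcripts. The transcripts are short-lived, and in tissues that have been cut or dissociated they are known to rise during handling.

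The set comprised 10 such genes, found by name in a table of 27607 genes, each with 1 entry: FOS, FOSB, JUN, JUNB, ATF3, EGR1, IER2, IER3, DUSP1 and ZFP36. The table held 5 RNA sequencing libraries from cattle (Bos taurus), labelled brain, skin, lung, heart and limb, with 1 library per label. By the labels' protocols, lysed cells were pre-amplified and made into libraries on a C1 microfluidic chip. The sources used here do not give breed, age, sex, treatment, the time between collection and lysis, or the number of cells or animals behind a library. There were no replicates and no library was named as a control, so every value below describes 1 library and carries no SD or p-value.

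The values were read, by elimination, as FPKM, a level scaled both to the length of the transcript and to the total of mapped fragments. Each library summed to between 1072430 and 1172798 FPKM, with 5109 to 6634 genes above 0. Read totals were not analysed here, so a gene listed at 0 may lie below what a library could show. The labels were checked against markers of each tissue. Each library had few of its own label's genes above 0, namely 0 of 7 brain, 1 of 7 skin, 0 of 6 lung, 1 of 6 heart and 1 of 7 limb genes. At 0 in all 5 libraries were SNAP25, KRT14, SFTPB, TNNT2 and MYOD1, among others. Some markers were above 0 under other labels. The lung marker SFTPC stood at 34.2 FPKM under the limb label only, and the skin marker KRT5 at 51 FPKM under the lung label only. The heart marker ACTC1 stood at 231 FPKM under the limb label, 57.7 FPKM under the brain label and 5.21 FPKM under the heart label. Endothelial markers were at 0 throughout (3 genes), blood and immune markers were above 0 only through HBA under the lung label (59.5 FPKM), and of 4 epithelial markers only CDH1 was above 0, at 13.8 to 55.7 FPKM in 3 libraries. The labels are therefore used only as names of libraries, and a difference between labels is not taken as one between tissues. Levels of a gene in such a library also cannot tell fewer cells with the transcript apart from less transcript per cell.

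Every one of the 10 genes was detected somewhere, but only JUN, IER3 and DUSP1 were above 0 in all 5. Among all genes, 9877 were detected somewhere and 2607 in all 5. Of the 50 values, 34 were above 0, 22 were at 10 FPKM or more and 7 were at 100 FPKM or more. The skin-labelled library had 9 of the 10 genes above 0, where 51.7% of the 9877 genes detected in any library were above 0. The brain-labelled library had 8, against 66.8% of those genes, and the limb-labelled library 7, against 53.9%. The lung- and heart-labelled libraries had 5 each, against 60.7% and 67.2%. The library with the most members above 0 was thus the one with the fewest genes above 0 in all. At 10 FPKM or more the libraries were alike, with 5 members in the brain- and lung-labelled libraries and 4 in each of the others. Of all detected genes, 46.5%, 38.9%, 43.9%, 45.6% and 39.8% reached 10 FPKM under the brain, skin, lung, heart and limb labels. The counts of members were thus near the shares of all genes. The 10 genes together made up 0.0326%, 0.0318%, 0.0313% and 0.0348% of the summed FPKM under the brain, skin, lung and heart labels and 0.0509% under the limb label. FOS alone held 220.49 of the 574 FPKM of the members under the limb label.

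**Figure D1:**
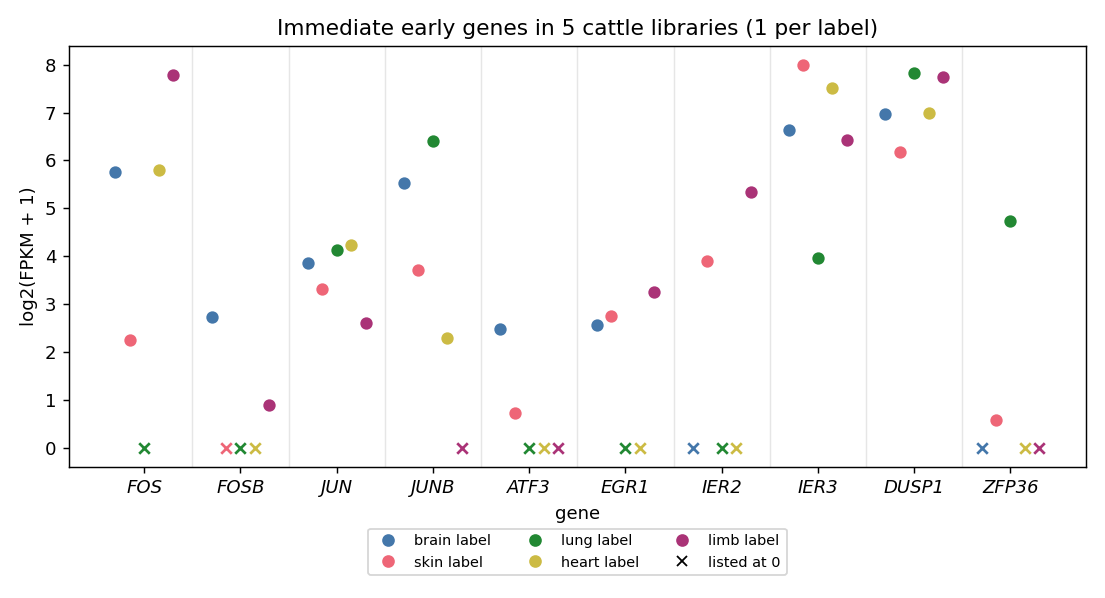
Level of each of the 10 genes, as log2(FPKM + 1) on the vertical axis, in the 5 libraries, with 1 point per library coloured by label and crosses for values listed at 0. DUSP1 points lie close together, FOS points reach from 0 under the lung label to 220.49 FPKM under the limb label, and ZFP36 is well above 0 only under the lung label.

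FOS, the founding subunit of the FOS family of AP-1, varied most among the 10. It stood at 53.2 FPKM under the brain label, 3.78 FPKM under the skin label, 54.9 FPKM under the heart label and 220.49 FPKM under the limb label, and it was listed at 0 under the lung label. The limb label was thus highest, the brain and heart labels were nearly level with each other, and the skin and lung labels were low. The limb-labelled value was 4.02 times the heart-labelled value, 4.15 times the brain-labelled value and 58.3 times the skin-labelled value. Within the limb-labelled library FOS was above 85.8% of the genes with a value above 0. Its relative FOSB, which also pairs with JUN proteins, was low throughout, at 5.61 FPKM under the brain label, 0.85 FPKM under the limb label and 0 under the other labels.

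JUN, the subunit that can pair with itself as well as with FOS, was present in every library at a low and even level. It stood at 13.4 FPKM under the brain label, 9.01 FPKM under the skin label, 16.5 FPKM under the lung label, 17.8 FPKM under the heart label and 5.09 FPKM under the limb label. The highest value was 3.49 times the lowest. The order was heart, lung, brain, skin and limb, so JUN was lowest where FOS was highest.

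JUNB, a JUN relative known to be a weaker activator than JUN at many promoters, ran from 83.7 FPKM in the lung-labelled to 0 in the limb-labelled library. Between these were 45.0 FPKM under the brain label, 12.1 FPKM under the skin label and 3.87 FPKM under the heart label. The lung-labelled value was 1.86 times the brain-labelled and 21.6 times the heart-labelled value. JUNB and FOS were therefore at opposite ends in the lung- and limb-labelled libraries, and only in the brain-labelled library were both above 40 FPKM.

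The third JUN gene, JUND, which is less tied to signals than the other two, was added from a list of related genes. It stood at 46.0 FPKM under the skin label and at 0.93 to 9.72 FPKM under the others. With it, the sum of the JUN family was 68.2 FPKM under the brain label, 67.1 FPKM under the skin label, 101 FPKM under the lung label, 24.3 FPKM under the heart label and 7.54 FPKM under the limb label. The FOS family, FOS and FOSB together, summed to 58.8, 3.78, 0, 54.9 and 221 FPKM in the same order. The FOS family thus made up 96.7% of the 2 families under the limb label, 69.3% under the heart label, 46.3% under the brain label, 5.34% under the skin label and 0% under the lung label. A share within 1 library does not change when a library is rescaled. Without JUND, the skin-labelled share was 15.2%, and the order of the libraries was as before.

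**Figure D2:**
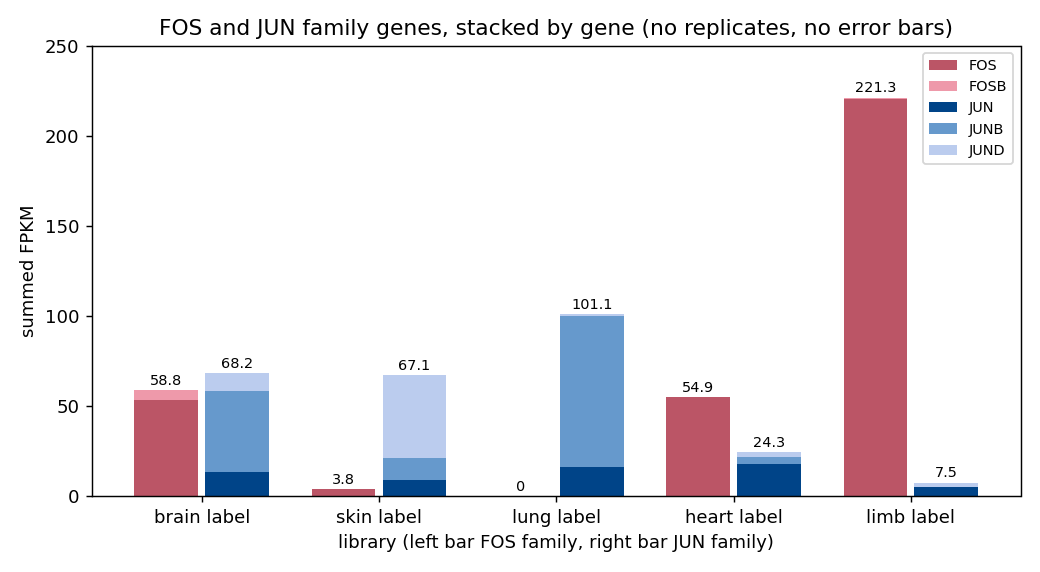
Summed FPKM of the FOS family (left bar: FOS, FOSB) and the JUN family (right bar: JUN, JUNB, JUND) in each library, stacked by gene, with 1 library per label and so no error bars. The FOS family leads under the limb label (221 against 7.54 FPKM) and the JUN family under the lung label (101 against 0 FPKM), where JUNB makes up 82.8% of it.

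Which JUN gene led also changed from library to library. JUNB made up 66.0% of the JUN family sum under the brain label and 82.8% under the lung label. JUND made up 68.6% under the skin label, and JUN itself 73.1% under the heart label and 67.5% under the limb label. The limb-labelled percentage rests on 7.54 FPKM in all. One trait shared by the FOS-poor skin- and lung-labelled libraries was a high summed level of cell cycle genes, a list of 8 added after the data had been seen. Of these, 7 were above 0 in each of the 2 libraries, with sums of 1016 and 1047 FPKM. Of all detected genes, 51.7% and 60.7% were above 0 there. Not all of the 7 were high: under the skin label RRM2 stood at 0.45 FPKM and MKI67 at 0.54 FPKM, against 148 and 3.44 FPKM under the lung label. The sums under the brain, heart and limb labels were 10.2, 0 and 55.3 FPKM. The part of these genes in the FOS difference was not tested. The 2 libraries also shared low levels of other genes, such as CCN2 and GADD45A, which are given below.

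Fibroblast markers were also read beside FOS. VIM, COL1A1, COL1A2 and COL3A1 were above 0 in all 5 libraries, while DCN and LUM were listed at 0 in all 5. The 6 genes summed to 1087 FPKM under the lung label, the lowest, and to 3016 FPKM under the heart label, the highest, with 2186, 2355 and 1720 FPKM under the brain, skin and limb labels. VIM made up most of each sum. The order of the sums was not that of FOS. The skin-labelled library ranked above the brain- and limb-labelled ones in the sums and below them in FOS. COL1A2, a chain of collagen I, stood at 311, 523 and 174 FPKM under the brain, heart and limb labels and at 19.7 and 6.0 FPKM under the skin and lung labels. COL1A1 stood at 131, 191 and 74.4 FPKM under the brain, heart and limb labels and at 11.4 and 37.2 FPKM under the skin and lung labels. COL1A1 and COL1A2 were thus lowest in the same 2 libraries as FOS. VIM and COL3A1 were instead highest under the skin label, at 2251 and 72.6 FPKM, and VIM stood at 1678, 1011, 2230 and 1399 FPKM under the brain, lung, heart and limb labels. COL3A1 was at 67.6 to 72.6 FPKM in 4 libraries and at 33.5 FPKM under the lung label. The part of these markers in the FOS difference was not tested.

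Of the remaining regulators, EGR1 and ATF3 were low and IER2 was not low in every library. EGR1, a zinc finger factor induced through SRF and ELK proteins, stood at 4.9 FPKM under the brain label, 5.68 FPKM under the skin label and 8.55 FPKM under the limb label. It was listed at 0 under the lung and heart labels, so it was not detected in the heart-labelled library, where FOS stood at 54.9 FPKM. ATF3, a bZIP factor raised by stress and in many cells a repressor, stood at 4.55 FPKM under the brain label and 0.66 FPKM under the skin label and was listed at 0 under the others. IER2, a small nuclear protein, was at 39.6 FPKM under the limb label and 13.9 FPKM under the skin label, a ratio of 2.86, and was listed at 0 in the other 3 libraries. EGR1, ATF3 and FOSB never reached 10 FPKM.

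The brain-labelled library had FOS, FOSB, JUN, JUNB, ATF3 and EGR1 all above 0, though not IER2. The skin-labelled library had all of these except FOSB, and had IER2 as well. The limb-labelled library had FOS, FOSB, JUN and EGR1, with IER2. Under the heart label FOS, JUN and JUNB were above 0, and under the lung label JUN and JUNB. ATF3 is also a target of ATF4, the factor of the amino acid and unfolded protein responses. ATF4 itself stood at 581 FPKM under the brain label, 170 FPKM under the skin label, 299 FPKM under the lung label, 579 FPKM under the heart label and 1148 FPKM under the limb label. The highest ATF4 value was therefore in a library in which ATF3 was listed at 0. DDIT3, CHAC1, TRIB3 and SESN2, also of the ATF4 list, stood highest under the brain label, at 176, 64.7, 67.3 and 9.03 FPKM. ATF3 was highest there too, though at only 4.55 FPKM. The list gene ASNS, like ATF4, was highest under the limb label, at 632 FPKM. A link of ATF3 to ATF4 was not tested. All 6 genes of the ATF4 list were above 0 under the brain, heart and limb labels, 2 under the skin label and 3 under the lung label. Of all detected genes, 66.8%, 67.2% and 53.9% were above 0 under the brain, heart and limb labels. The share was 51.7% under the skin label and 60.7% under the lung label. Asparagine synthetase ASNS was depleted, at 0, under the skin label, with 145 FPKM or more elsewhere.

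IER3, which takes part in cell survival and in the control of ERK and NF-kappaB signalling, was one of the most abundant members. It stood at 99.0 FPKM under the brain label, 254 FPKM under the skin label, 14.6 FPKM under the lung label, 181 FPKM under the heart label and 85.0 FPKM under the limb label. The lung-labelled library lay below all the others, and the lowest of those, the limb-labelled value, was 5.81 times as high. Across the range, the skin-labelled value was 17.3 times the lung-labelled one. IER3 was above 85.7% of the detected genes in the skin-labelled library and above 34.6% in the lung-labelled one.

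DUSP1, a nuclear phosphatase that switches off p38, JNK and ERK kinases, had the highest mean of the 10, at 153 FPKM. Its levels were 124 FPKM under the brain label, 71.5 FPKM under the skin label, 226 FPKM under the lung label, 127 FPKM under the heart label and 214 FPKM under the limb label. The lung- and limb-labelled values were nearly level, as were the brain- and heart-labelled values, and the skin label was lowest. The highest value was 3.17 times the lowest, although in the same libraries FOS went from 0 to 220.49 FPKM. DUSP1 was above 65.4% to 86.7% of the detected genes of each library. The lung- and limb-labelled libraries, which had the highest DUSP1 levels, had the lowest and the highest FOS levels.

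ZFP36 encodes tristetraprolin, which binds AU-rich elements in short-lived transcripts and brings in the CCR4-NOT deadenylase. It stood at 25.7 FPKM under the lung label and 0.5 FPKM under the skin label, and was listed at 0 under the brain, heart and limb labels. The lung-labelled value was 51.4 times the skin-labelled one as deposited and 17.8 times after adding 1 to both. The second value is smaller because the skin-labelled level is near the lowest values in the table.

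The range of each gene was set against that of all genes whose mean reached 10 FPKM, as the highest minus the lowest log2(FPKM + 1). Over these 5010 genes the median range was 4.91. FOS had a range of 7.79, larger than that of 97.1% of them. JUNB followed at 6.40 and IER2 at 5.34, both also above the median. IER3 had a range of 4.03, DUSP1 of 1.65 and JUN of 1.62, the last 2 larger than 17.6% and 17.0% of genes. Of the 5010 genes, only 49.7% were above 0 in all 5 libraries, as IER3, DUSP1 and JUN were. A value of 0 in any library makes the range of a gene at such levels large, so these percentages also reflect detection. The set therefore held both widely and narrowly varying genes. ZFP36 at 4.74, EGR1 at 3.26, FOSB at 2.72 and ATF3 at 2.47 had means below 10 FPKM, where adding 1 limits the range. The median over the 10 was 3.64, and 3 of the 10 exceeded the median of all genes.

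**Figure D3:**
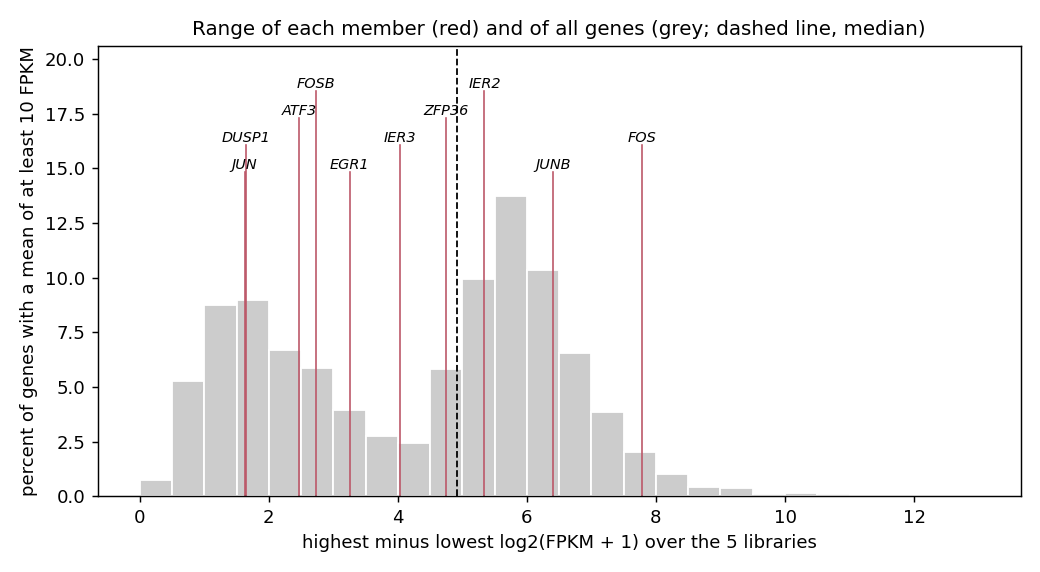
Distribution of the range over the 5 libraries, highest minus lowest log2(FPKM + 1), for the 5010 genes whose mean reached 10 FPKM (grey bars, percent of genes). The 10 members are red lines, whose heights have no meaning, and the median of the 5010 genes is a dashed line at 4.91. FOS lies far to the right at 7.79, and JUN and DUSP1 lie on the left at 1.62 and 1.65.

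Each library was next compared with the other 4. A gene was called enriched where its level reached 10 FPKM and its (FPKM + 1) was 4 or more times that of every other library. It was called depleted when every other library had at least 10 FPKM and at least 4 times its (FPKM + 1). Among the 10 genes, ZFP36 was enriched in the lung-labelled library, where 4.48% of all detected genes were, and IER3 was depleted there, as were 1.91% of all. In the other libraries 0 members were called. The shares of all genes enriched there were 3.46% for the brain, 3.44% for the skin, 3.73% for the heart and 3.18% for the limb label. The shares depleted were 0.537%, 2.75%, 0.850% and 2.41%. Over the 5 libraries this made 1 enriched and 1 depleted call for 10 genes.

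FOS in the limb-labelled library came just under the threshold, at 3.97 times the heart-labelled value after adding 1. Without the heart-labelled library among the references the ratio was 4.09, FOS was called enriched and JUNB was called depleted in the limb-labelled library. Without the brain-labelled library JUNB was called enriched in the lung-labelled one. Without the skin- or the limb-labelled library IER2 was called enriched in the other of these. Without the skin-labelled library FOS was called depleted under the lung label, and without the lung-labelled library it was called depleted under the skin label. ZFP36 under the lung label remained enriched, and IER3 there remained depleted, with each of the other 4 libraries left out in turn, so leaving out a library added calls for FOS, JUNB and IER2.

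In pairs of libraries, a gene was counted when the higher value was at least 10 FPKM and the ratio after adding 1 at least 4. The most members differed between the lung and limb labels. FOS, IER2 and IER3 were higher under the limb label, as were 13.0% of all detected genes, and JUNB and ZFP36 under the lung label, as were 17.1%. Between the lung and heart labels, FOS and IER3 were higher under the heart label (14.8% of all genes) and JUNB and ZFP36 under the lung label (13.7%). The same 2 genes were higher under the lung label than under the skin label (16.8%), while IER2 and IER3 were higher under the skin label (11.8%). Between the brain and lung labels, FOS and IER3 were higher under the brain label (15.0%) and ZFP36 under the lung label (12.4%). All 4 pairs with the lung-labelled library thus held 3 to 5 members.

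The other 6 pairs held 1 to 3 members each. Between the brain and limb labels, FOS and IER2 were higher under the limb label (9.65%) and JUNB under the brain label (16.2%). FOS was higher under the brain label than under the skin label (17.6%), and IER2 was higher under the skin label (10.3%). Of the skin and heart labels, FOS was higher under the heart label (17.2%) and IER2 under the skin label (11.5%). FOS was higher under the limb label than under the skin label (14.6%), and JUNB was higher under the skin label (14.0%). JUNB was higher under the brain label than under the heart label (11.3%), and 0 members were higher under the heart label (10.3%). Last, IER2 was higher under the limb label than under the heart label (9.97%), and 0 members were higher under the heart label (15.9%).

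Summed over the 10 pairs, 27 of 100 values were counted, against a mean of 27.3% over all detected genes. As a group, the 10 genes therefore differed between libraries about as often as genes in general by this rule. With a minimum of 50 FPKM in place of 10, 14 of 100 values were counted, against 9.07% of all genes. The count came from 5 of the 10 genes: FOS was counted in 7 of the 10 pairs, JUNB and IER2 in 6 each, and IER3 and ZFP36 in 4 each. JUN, DUSP1, EGR1, ATF3 and FOSB were counted in 0 pairs, the last 3 of them because no value reached 10 FPKM. Without the 4 pairs that hold the lung-labelled library, 11 of 60 values were counted, or 18.3%, against 26.4% of all genes. Without the 4 pairs that hold the limb-labelled library, 16 of 60 values were counted, or 26.7%, against 27.1%.

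The genes nearest to each member in pattern were found among named genes whose mean reached 10 FPKM. The measure was the root mean square difference of log2(FPKM + 1) over the 5 libraries, with each gene centred on its own mean. With 5 libraries such likeness is a description only. Nearest to FOS were the mitophagy receptor BNIP3L at a difference of 0.53, the branched-chain amino acid enzyme BCKDHB at 0.61 and CCN1 at 0.63. CCN1, a matricellular protein that is itself an immediate early gene, stood at 97.7, 9.98, 0, 98.9 and 157 FPKM under the brain, skin, lung, heart and limb labels. It thus shared with FOS the 0 under the lung label, the low skin-labelled value and the highest value under the limb label.

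JUNB was nearest to the fatty acid carrier FABP5 at 0.57, the galactokinase GALK1 at 0.62 and the clathrin adaptor subunit AP1S3 at 0.62, all of them listed at 0 under the limb label. IER3 was nearest to the DNA polymerase delta subunit POLD4 at 0.22, with 122.9 FPKM under the skin label and 6.3 FPKM under the lung label, and then to the actin-binding protein LIMA1 and to CIBAR1, both at 0.32. The nearest genes of DUSP1 and JUN lay closer. The ribosomal protein gene RPS4X was nearest to DUSP1 at 0.11, and the ubiquitin-conjugating enzyme gene UBE2E1 nearest to JUN at 0.10. For EGR1 the nearest were ERI3 at 0.41, PDPN at 0.41 and APOM at 0.45.

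**Figure D4:**
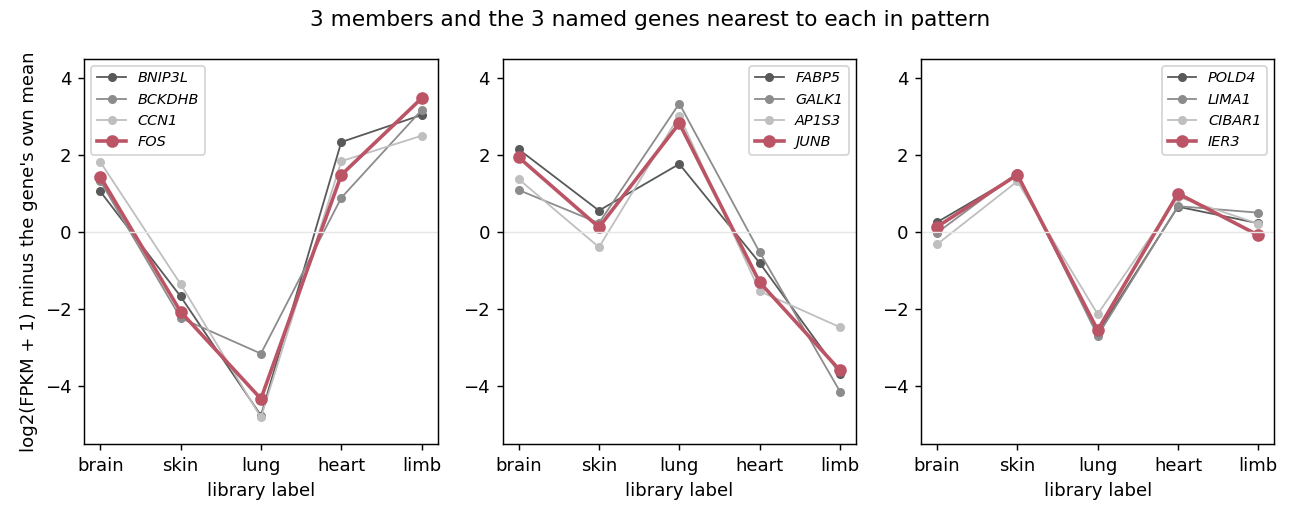
Log2(FPKM + 1) minus the gene's own mean over the 5 libraries (vertical axis) by library label, for FOS, JUNB and IER3 (red) and the 3 named genes nearest to each in pattern (grey). Lines join the values of 1 gene and do not stand for an order of the libraries. FOS and CCN1 are lowest under the lung label and highest under the limb label, JUNB is highest under the lung label and IER3 lowest there.

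Other genes of the response were taken from 8 lists that hold 111 genes, of which 109 were analysed. Of these, 78 were above 0 in at least 1 library, where 9877 of all 27607 genes were. The 78 gave 14 enriched and 11 depleted calls over the 5 libraries. Per detected gene this was 17.9% enriched and 14.1% depleted, where all detected genes gave 18.3% and 8.46%. Among 12 other AP-1 and related bZIP genes, 5 were above 0 anywhere. FOSL1 and FOSL2, the other FOS relatives, were listed at 0 in all 5 libraries. JUND was enriched under the skin label and BATF2 under the limb label, at 27.6 FPKM and listed at 0 elsewhere. MAFG stood at 25.9 FPKM under the limb label and 6.8 FPKM under the heart label, and MAFF at 11.6 FPKM under the brain label and 4.09 FPKM under the heart label.

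Of 20 other early response regulators, 12 were above 0 anywhere, against 9877 of all 27607 genes. EGR2, EGR3, EGR4, NR4A1 and NR4A3 were listed at 0 in all libraries. ID2 and ID3, which block basic helix-loop-helix factors, had the highest means. ID3 stood at 346, 431, 228 and 25.5 FPKM under the skin, lung, heart and limb labels and was listed at 0 under the brain label, where its relative ID1 was also listed at 0, so both were depleted there. ID2 ranged from 22.1 FPKM under the limb label to 437 FPKM under the lung label. MYC, a growth regulator, was at 17.6, 26.5, 43.5 and 62.9 FPKM under the brain, skin, heart and limb labels and was depleted, at 0, under the lung label. HES1, a target of Notch signalling, was above 0 in all 5 libraries and had its highest value, 106 FPKM, under the lung label. KLF6, a zinc finger factor, stood at 48.4 FPKM under the brain label and 33.9 FPKM under the heart label, 5.45 FPKM under the limb label and 0 under the other 2.

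Early response genes for signalling and feedback included several that were low in the lung-labelled library. Only 5 of 15 were above 0 there, against 10 in each of the other 4 libraries. Of all detected genes, 60.7% were above 0 there, against 66.8%, 51.7%, 67.2% and 53.9% under the brain, skin, heart and limb labels. TRIB1, a pseudokinase, was depleted under the lung label at 0.44 FPKM, with 18.4 to 44.9 FPKM elsewhere. The matricellular growth factor CCN2 was at 307, 630 and 1010 FPKM under the brain, heart and limb labels but at 7.97 and 0.63 FPKM under the skin and lung labels. GADD45A, which responds to DNA damage and stress, was at 90.3, 119 and 103 FPKM in the first 3 of these and listed at 0 in the other 2. Enriched under the skin label were the antiproliferative gene BTG2 at 132 FPKM and PPP1R15A, which directs a phosphatase to eIF2alpha, at 43.2 FPKM, both listed at 0 elsewhere. BTG1 was enriched under the heart label at 59.7 FPKM, against 5.1 to 11.5 FPKM in the others. PLK2 and GADD45B were above 0 in all 5 libraries, PLK2 at 94.6 to 413 FPKM and GADD45B at 11.1 to 111 FPKM. SGK1 stood at 70.5, 174 and 380 FPKM under the brain, skin and heart labels and was listed at 0 under the lung and limb labels.

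Of 20 genes of the MAP kinase cascade, which carries signals to early genes, 15 were detected somewhere and 3 in all 5 libraries. Among all genes, 9877 were detected somewhere and 2607 in all 5. ARAF, the most abundant, was at 157 to 238 FPKM in 4 libraries and depleted under the lung label at 4.53 FPKM. MAP2K1, which activates ERK kinases, and MAPK14, which is p38 alpha, were depleted under the skin label at 2.1 and 0 FPKM. MAP2K1 was highest under the limb label, at 89.2 FPKM. Enriched were MAPK13 under the brain label at 19.6 FPKM, MAP2K7 under the lung label at 21.0 FPKM and MAP2K4 under the heart label at 10.9 FPKM. MAP2K4 and MAP2K7 both act on JNK, the kinase of JUN.

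Of 14 other dual specificity phosphatases and ERK inhibitors, 8 were above 0 anywhere and 0 in all 5 libraries. Of the 9877 genes detected in any library, 2607 were above 0 in all 5. DUSP1 was above 71 FPKM in every library. DUSP6, the cytoplasmic ERK phosphatase, was enriched under the lung label at 78.8 FPKM, with 10.8 FPKM under the skin label, 6.17 FPKM under the brain label and 0 under the other 2. DUSP10 and SPRY2 were enriched under the heart label at 21.9 and 58.7 FPKM, and DUSP16 under the brain label at 29.0 FPKM. DUSP5, a nuclear ERK phosphatase, was highest under the heart label at 36.5 FPKM. SPRED1, an ERK pathway inhibitor, was not called and stood at 15.4, 17.3, 5.57 and 5.13 FPKM under the brain, skin, heart and limb labels and at 0 under the lung label.

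The relatives of ZFP36 were spread more evenly than ZFP36. ZFP36L2 stood at 7.82 to 21.8 FPKM and ZFP36L1 at 1.58 to 25.9 FPKM, each above 0 in all 5 libraries. The lung-labelled library, the highest for ZFP36, was the lowest for both. Of the 11 CCR4-NOT genes, all were above 0 in the brain-labelled library, where 66.8% of all detected genes were. CNOT2 and the catalytic subunit CNOT7 were depleted under the skin label, at 0, and the scaffold CNOT1 under the limb label, also at 0. CNOT2 ranged from 56.9 to 116 FPKM in the other 4 libraries. CNOT10 was enriched under the brain label at 20.6 FPKM.

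Of 10 factors that act on early promoters, 7 were above 0 anywhere, against 9877 of all 27607 genes. SRF, the serum response factor of the FOS and EGR1 promoters, was enriched under the brain label at 12.0 FPKM and listed at 0 elsewhere, including the limb-labelled library with the highest FOS level. ELK3 was above 0 in all 5 libraries, at 0.9 FPKM under the limb label to 23.0 FPKM under the lung label. ATF1 stood at 26.9 FPKM under the lung label and 43.0 FPKM under the heart label, and CREB1 at 35.6 FPKM under the lung label and 9.75 FPKM under the limb label. The 10 factors summed to 11.5 FPKM under the limb label, the lowest sum, and to 92.3 FPKM under the lung label, the highest.

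The genes beside each member on the chromosome were looked up by name in a RefSeq gene table of a later assembly, ARS-UCD2.0, in which all 10 symbols matched and 0 of the 10 overlapped another listed gene. TMED10, which lies next to FOS, was at 99.6 to 133 FPKM in all 5 libraries, while JDP2, on the other side of FOS, was listed at 0 in all 5. PRDX2, next to JUNB, stood at 2212 to 4147 FPKM, with its highest value in the limb-labelled library, where JUNB was listed at 0. DDR1 and FLOT1 lie beside IER3. DDR1 was above 0 only under the limb label, at 1.09 FPKM. FLOT1 was at 15.1, 37.2, 14.3 and 41.0 FPKM under the brain, skin, heart and limb labels and listed at 0 under the lung label, where IER3 was also lowest, but its order in the other libraries was not that of IER3. Beside ZFP36, MED29 was at 19.5 FPKM under the lung label, 2.05 FPKM under the heart label and 0 under the others, and PLEKHG2 was highest under the brain label, at 4.75 FPKM. Beside IER2, STX10 was at 38.6 FPKM under the limb label and listed at 0 under the others. Beside JUN, MYSM1 was at 2.67 FPKM under the heart label and listed at 0 under the others. MED29, STX10 and MYSM1 thus shared their highest library with the member beside them. More of the neighbours found above 0 did not, namely TMED10, ERCC1, RTN2, PRDX2, NENF, REEP2, ETF1, DDR1, FLOT1, ERGIC1 and PLEKHG2. These neighbours were chosen after their values had been seen.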

How the data were processed

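The table holds 5 cattle libraries, 1 per label. Per the submitters' processing notes, bcl2fastq, STAR and RSEM were used with ARS-UCD1.2. The sources used here give no versions, annotation, strand use or filters. The authors deposited 1 table of levels estimated per gene, read here as FPKM although neither header nor labels name the unit, since 98.7% to 99.1% of values above 0 were not whole numbers and each library summed to more than the fixed total of TPM.

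Values were used as deposited, with a pseudocount of 1 where stated. Depth was sought in ratios of values from 2 to 200 FPKM. Between the brain and heart labels 56 of 3557 genes lay within 0.3% of a ratio of 0.81, against 37 at the next best ratio. The best and next best ratios held 34 and 22 genes for the brain and lung labels but 17 and 16 for the brain and skin labels. No counts were recovered, so no counting interval is given.

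The members and lists were chosen with earlier results of these data known. Named are all 10 members, up to 6 abundant genes and any called gene of each list, and the 3 nearest genes in pattern of each member above 0 in at least 3 libraries. FOSL1, FOSL2, SPRED1, EGR and NR4A genes, GADD45A, MAFG, MAFF, DUSP5 and the neighbouring genes were named after their values were seen. The tissue markers SFTPC, KRT5 and ACTC1 were likewise named after their values were seen. Of listed genes, 2 (IER5 and RHOB) were not analysed here. Sequences were not used here. Python 3.11.15, numpy 2.4.6 and pandas 2.3.3 were used.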

Additional observations from a re-analysis of the deposited data

How the results depend on the processing

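Other pseudocounts, minimums and ratios, 3 rescalings and other references were tried. No paired analysis was possible because no result comes from a test and each label has 1 library. Rescaling moved the heart-labelled library by 0.14 (median ratio) and 0.15 (trimmed mean) and the skin-labelled library by -0.11 (trimmed mean) on the log2 scale, and under it the single enriched and the single depleted call kept their counts. Enriched calls numbered 2 with a pseudocount of 0.1, 0 with a minimum of 50 FPKM, 3 with a ratio of 2 and 4 against the mean of the others. They numbered 2 without the brain-, skin-, heart- or limb-labelled library and 0 without the lung-labelled one, which then had no call of its own. Depleted calls numbered 3 with a minimum of 1 FPKM, 0 with a ratio of 8, 2 without the skin- or the heart-labelled library and 8 against the mean. Of 100 values, pair counts were 41 with a minimum of 1 FPKM (37.0% of all genes) and 14 with one of 50 FPKM (9.07%), and 11 and 16 without the pairs that hold the lung- or limb-labelled library, which leave fewer pairs (chosen after seeing the data). Member values at 10 FPKM or more numbered 22. Without DUSP1 the members made up 0.0210%, 0.0120% and 0.0319% of the sum under the brain, lung and limb labels. The limb-labelled sum thus stayed highest without DUSP1. FOS, which held 220.49 of the 574 FPKM of the members under the limb label, was not left out in turn. The 10 members summed to 349, 371, 367 and 384 FPKM under the brain, skin, lung and heart labels. FOS stood at 53.2, 3.78, 0 and 54.9 FPKM in these libraries, so much of the higher limb-labelled sum was FOS. Depleted calls in the related lists numbered 17 with a minimum of 1 FPKM. The FOS family share under the skin label was 15.2% without JUND, an alternative also chosen after seeing the data.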
